A study of Homo sapiens with 16 samples.

Results

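HIC1 and HIC2 are a pair of paralogous transcriptional repressors, and they were followed through 16 RNA-seq libraries of OCI-AML3, an established acute myeloid leukemia (AML) cell line. The members were all rows of the deposited expression table whose Ensembl identifier maps to either gene, which gave 2 of 62700 genes. HIC1 was chosen by its measured rise after retinoid treatment in these same libraries, so its values against untreated cells are given as a description, without a test. HIC2 was taken as its paralog. There were 4 libraries of untreated cells and 3 each of cells treated for 3 h with ATRA (all-trans retinoic acid, a pan-RAR agonist), Am80 (an agonist selective for RARA), ATRA+GSK-LSD1+MB3 or Am80+GSK-LSD1+MB3. According to the methods, both retinoids and GSK-LSD1, which inhibits LSD1, were used at 0.1 µM, and MB3, which inhibits GCN5, at 100 µM. The inhibitors were never given without a retinoid in these libraries, so an effect of the inhibitors alone cannot be told apart from an effect on the retinoid response. All libraries came from 1 cell line, and the labels do not say whether the replicates were separate cultures, so the p-values measure the spread between these libraries, which may be technical.

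HIC1 (hypermethylated in cancer 1) encodes a sequence-specific repressor with an N-terminal BTB/POZ domain, through which the protein multimerizes, and a row of C-terminal zinc fingers that bind DNA. It recruits the CtBP corepressors and chromatin remodelling and Polycomb complexes to its target promoters. It is known as a tumor suppressor whose promoter is often methylated in cancer, and SIRT1, which encodes a protein deacetylase, is among its reported targets. HIC2 has the same domain layout and is known for repressing BCL11A during the fetal period of red cell development. Retinoic acid acts through RAR/RXR heterodimers bound at response elements, which repeat a short core resembling AGGTCA.

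The promoter of HIC2 is shown because the treatments were retinoids and it holds letters of the kind that their receptors bind. In the RefSeq promoter table of GRCh38.p14 it lies at chr22:21417121-21417420 on the plus strand and spans 300 bases around the annotated start. The capitals mark the 1 match to a core of the retinoic acid receptor.
HIC2 promoter: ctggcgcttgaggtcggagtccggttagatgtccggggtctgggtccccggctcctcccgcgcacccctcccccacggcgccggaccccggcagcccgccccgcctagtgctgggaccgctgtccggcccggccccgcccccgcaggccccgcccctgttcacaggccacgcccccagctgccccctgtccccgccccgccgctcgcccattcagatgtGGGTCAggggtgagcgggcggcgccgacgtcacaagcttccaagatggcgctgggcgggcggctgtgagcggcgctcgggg
The search covered both strands for the core AGGTCA and for its common variants. One variant searched was GGGTCA. Another was written AGTTCA in the search. The last variant of the search was GGTTCA. The match, GGGTCA, began at position -31 relative to the RefSeq start, and 38.6% of the 35116 promoters of the table held at least 1 such match. The window was rich in G and C, at 77% against a median of 58.67% over all promoters, and 93.6% of promoters had a lower share. It held 35 CpG dinucleotides, against a median of 14, and 85.9% of promoters held fewer. A match is a description of the letters and does not show a bound site. HIC1 was not matched in this table.

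In GENCODE v29 (GRCh38), HIC1 (ENSG00000177374.13) lies on chromosome 17 from 2054154 to 2063241 on the plus strand, with 7 transcripts and 8108 exonic bases. HIC2 (ENSG00000169635.10) lies on chromosome 22 from 21417404 to 21451463, also on the plus strand, with 3 transcripts and 7219 exonic bases. The paralogs could be counted apart, because none of the 8183 windows of 51 bases (the read length given in the methods) in HIC1 transcripts occurred in HIC2 on either strand. Of the 7163 windows of HIC2, 271 (3.78%) occurred on the same strand in the pseudogenes PI4KAP1 and PI4KAP2. HIC1 shares its 3′ end with SMG6, a gene of nonsense-mediated decay that is transcribed from the opposite strand: 2369 HIC1 windows (28.95%) lay in SMG6 transcripts. The strand setting of the counting was not given in the sources used here, and without it reads from HIC1 and SMG6 in this stretch cannot be told apart. The paper names a stranded library kit, whereas the sample labels name a different kit, so the kit does not settle this.

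Values are normalized counts, that is, reads per gene divided by a size factor for each library. Each library held 11963898 to 33789718 reads counted on genes, and Am80 replicate 2 was the deepest. In mean distance to the other libraries of its own group over all tested genes, untreated replicate 4 (53.2 log2 units) and Am80 replicate 2 (46.8 log2 units) were farthest out, and the other 14 libraries lay at 31.7 to 44.9. For HIC1, HIC2 and SMG6 every comparison was refitted without each of these libraries, and values are given where they moved a result. Without untreated replicate 4 no call of these 3 genes changed, and the log2 fold change of HIC1 with ATRA was 7.13. All 8 myeloid markers (among them SPI1, CEBPA, MPO and CD33) passed the filter on low values described next, with summed normalized counts of 33795 to 37605 in untreated libraries and 29873 to 33054 in treated ones. The 5 T cell markers summed to 0 to 3.74, with CD3D and CD2 at 0 in every library. Of 4 B cell markers 1 passed, MS4A1 was at 0 everywhere and the sums were 28.6 to 36.9 in untreated libraries and 38.1 to 62.5 in treated ones. The untreated and treated ranges did not overlap for the myeloid and B cell sums, and their part in the results was not tested. Of 6 mesenchymal markers 2 passed with sums of 68.5 to 116, and none of 4 epithelial markers passed, with sums of 1.09 to 7.76. Tests used limma with a mean-variance trend on log2(normalized count + 1) fitted to 14643 genes whose mean reached at least 10, and both HIC1 and HIC2 passed. A gene was called when its Benjamini-Hochberg adjusted p was under 0.05 and its change exceeded 1.5-fold. Fold changes on this scale understate the change of genes with low counts.

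HIC1 went from a low level to a high one within 3 h of either retinoid, and it stood lower when the inhibitors were added. In such bulk libraries, more cells with HIC1 RNA and more HIC1 RNA per cell cannot be told apart. In untreated cells it had 25.1, 15.7, 17.4 and 26.6 normalized counts in replicates 1 to 4, resting on 14 to 24 reads. The ATRA libraries held 2609, 2811 and 2979. The Am80 libraries held 2928, 1863 and 3099. Every retinoid library thus lay above every untreated one by a wide margin, while ATRA and Am80 overlapped, with Am80 replicate 2 below the other 5 retinoid libraries at 61.8% of the mean of the other Am80 libraries.

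With ATRA+GSK-LSD1+MB3 (the ATRA combination), HIC1 was at 1263, 935.8 and 891.1 normalized counts. With Am80+GSK-LSD1+MB3 (the Am80 combination) it was at 1198, 1181 and 1133. All 6 combination libraries lay below the lowest retinoid library and above the highest untreated library. HIC1 averaged 21.2 ± 5.4 (SD, n = 4) in untreated cells, 2800 ± 185 (SD, n = 3) after ATRA, 2630 ± 669 (SD, n = 3) after Am80, 1030 ± 203 (SD, n = 3) in the ATRA combination and 1171 ± 34 (SD, n = 3) in the Am80 combination.

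**Figure D1:**
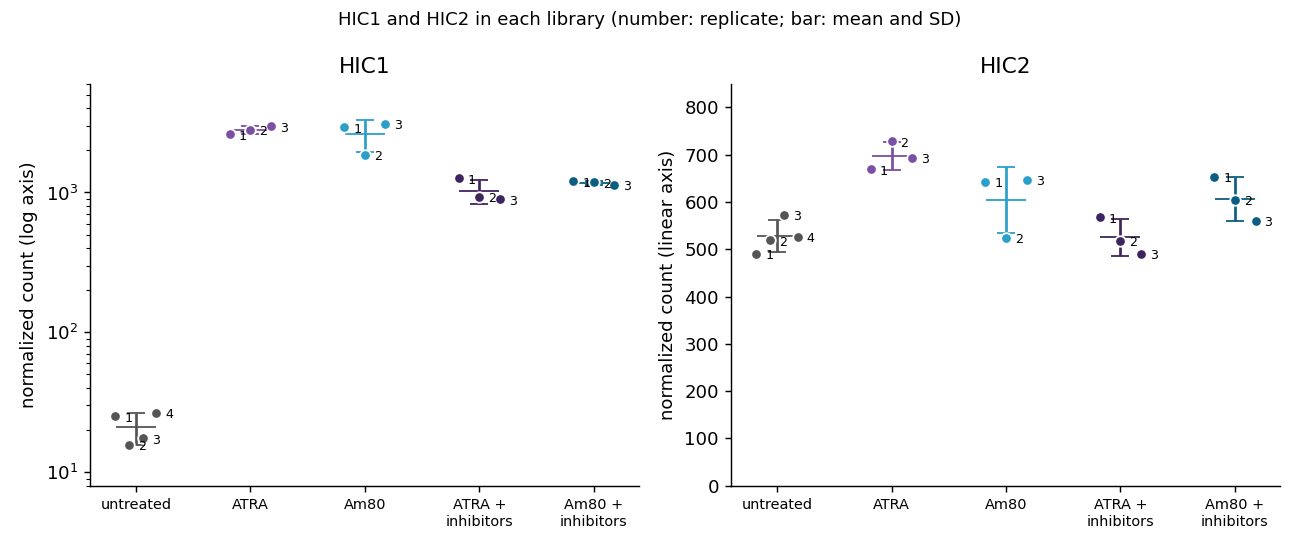
Normalized counts of HIC1 (left, log axis) and HIC2 (right, linear axis from 0) in each of the 16 libraries, with points numbered by replicate and bars for the mean and SD of each group. HIC1 lay at 15.7 to 26.6 in untreated cells, at 1863 to 3099 with a retinoid and at 891.1 to 1263 with the inhibitors added, while HIC2 stayed between 489.9 and 728 throughout.

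Against untreated cells the fitted log2 fold change of HIC1 was 7.01 (95% confidence interval 6.65 to 7.36) with ATRA and 6.89 (6.53 to 7.24) with Am80. It was 5.55 (5.20 to 5.91) in the ATRA combination and 5.75 (5.40 to 6.11) in the Am80 combination. These 4 comparisons share the same untreated libraries, and they are the ones HIC1 was chosen on, so no test is attached to them. Of all tested genes, 6.52% were called higher with ATRA and 6.41% with Am80, and nothing is read from this for HIC1. Scaled to total reads in place of size factors, HIC1 had 0.948 to 1.52 CPM (counts scaled to the library total) in untreated libraries, 154 to 173 with ATRA, 107 to 177 with Am80, and 47.3 to 68.5 and 59.8 to 62.3 with inhibitors beside ATRA and Am80.

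Adding GSK-LSD1 and MB3 lowered HIC1 beside both retinoids. Beside ATRA the combination held 36.8% of the HIC1 level of the retinoid alone, a log2 fold change of -1.46 (95% confidence interval -1.84 to -1.08, limma adjusted p = 2.28e-06), and every combination library was lower than every ATRA library. Beside Am80 it held 44.5%, a log2 fold change of -1.13 (-1.51 to -0.75, limma adjusted p = 5.06e-05), again without overlap. Of all tested genes, 11.4% were called lower in the first of these comparisons and 8.9% in the second. The retinoid libraries in both comparisons are among those HIC1 was chosen on, and choosing on a high retinoid level favours a fall. The p-values and the lack of overlap are therefore a description and not independent support. Without Am80 replicate 2 the fall beside Am80 was -1.36 on the log2 scale (adjusted p = 2.93e-06).

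HIC1 did not differ detectably between the retinoids. Am80 minus ATRA was -0.12 on the log2 scale (95% confidence interval -0.50 to 0.26, limma adjusted p = 0.829), and without Am80 replicate 2 the sign turned, at 0.11 (adjusted p = 0.833). With inhibitors, Am80 minus ATRA was 0.20 (-0.18 to 0.58, adjusted p = 0.571). The interaction, which compares the inhibitor effect beside Am80 with that beside ATRA, was 0.32 (-0.21 to 0.86, adjusted p = 0.542) and 0.09 without Am80 replicate 2. The intervals leave room for differences of more than 1.5-fold in the interaction only. From the highest level to the lowest the order was ATRA, Am80, Am80 combination, ATRA combination and untreated, in which neither the first pair nor the pair of combinations differed beyond its spread.

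**Figure D2:**
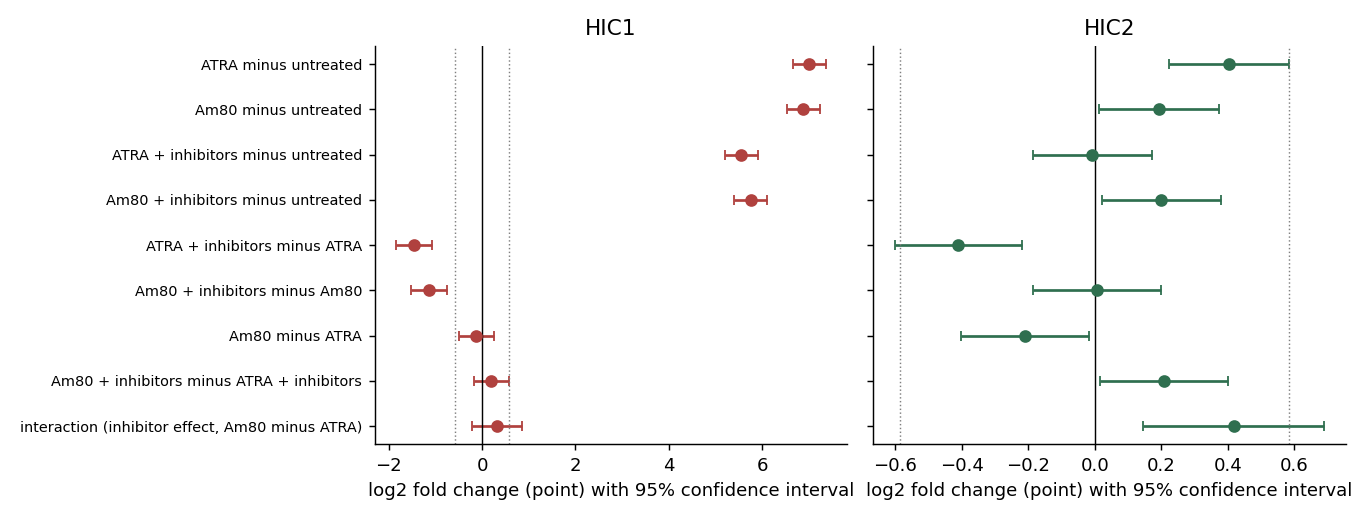
Log2 fold changes of HIC1 (left) and HIC2 (right) in the 9 comparisons, as points with 95% confidence intervals from the limma fit. Dotted lines mark the 1.5-fold limit, and the panels have different horizontal scales. HIC1 ranged from -1.46 to 7.01 and HIC2 from -0.41 to 0.42.

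HIC2 was expressed in every library and moved little. Untreated replicates 1 to 4 held 490.9, 519.1, 572.9 and 526.3 normalized counts. ATRA libraries held 669.1, 728 and 693.6, all above the untreated range. Am80 libraries held 642.4, 524.5 and 646.6, of which replicate 2 fell inside the untreated range. In the ATRA combination HIC2 was at 567.2, 517.3 and 489.9, and in the Am80 combination at 653.4, 604.8 and 560. The ATRA combination overlapped untreated cells almost wholly and lay entirely below ATRA, whereas the Am80 combination overlapped Am80. By mean the order was ATRA, Am80 combination, Am80, untreated and ATRA combination, in which each group after ATRA overlapped its neighbour. ATRA and the Am80 combination, the first neighbours, did not overlap and were not compared by the design.

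The group means of HIC2 were 527 ± 34 (SD, n = 4) in untreated cells, 697 ± 30 with ATRA, 605 ± 69 with Am80, 525 ± 39 in the ATRA combination and 606 ± 47 in the Am80 combination (SD, n = 3 each). With ATRA the log2 fold change was 0.40 (95% confidence interval 0.22 to 0.58, limma adjusted p = 0.00135), which passed the adjusted p but not the 1.5-fold limit. Adding inhibitors to ATRA gave -0.41 (-0.60 to -0.22, limma adjusted p = 0.00106), also inside the limit. By the adjusted p alone, 24.6% of all tested genes passed in the first comparison and 49.3% in the second, so a difference of this kind was common.

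The other HIC2 differences passed neither criterion. Am80 minus untreated was 0.19 on the log2 scale (limma adjusted p = 0.103), and without Am80 replicate 2 it was 0.29 with an adjusted p of 0.0148, a threshold that 28.8% of all genes passed in the fit of all libraries. The ATRA combination minus untreated was -0.01 (adjusted p = 0.951) and the Am80 combination minus untreated 0.20 (adjusted p = 0.0559), where 29.1% and 26% of all genes were called in either direction. Without Am80 replicate 2 the latter was again 0.20, with an adjusted p of 0.0273, inside the 1.5-fold limit. Adding inhibitors to Am80 gave 0.01 (-0.19 to 0.20, adjusted p = 0.957), and -0.09 (adjusted p = 0.433) without that library. Am80 minus ATRA was -0.21 (-0.40 to -0.02, adjusted p = 0.306), a comparison in which 0.0478% of genes were called, and -0.11 (adjusted p = 0.636) without Am80 replicate 2. With inhibitors it was 0.21 (adjusted p = 0.248).

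The inhibitor differences of HIC2 beside ATRA (-0.41) and beside Am80 (0.01) were also compared directly. The interaction for HIC2 was 0.42 (95% confidence interval 0.15 to 0.69, unadjusted p = 0.00442 and adjusted p = 0.226 by limma), and 0.32 (adjusted p = 0.554) without Am80 replicate 2. It did not pass after adjustment. By limma, 0% of all genes were called in the interaction and 0% in Am80 minus ATRA with inhibitors, with 2211 and 2656 genes at an unadjusted p under 0.05. edgeR also called 0 in both, and DESeq2 called 6 and 13.

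Per kilobase of exon, the level of HIC1 changed place with that of HIC2. In untreated cells HIC1 held 2.62 and HIC2 73.0 normalized counts per kilobase, a ratio of 0.0358. With ATRA the levels were 345 and 96.5 per kilobase, a ratio of 3.58, and with Am80 324 and 83.7, a ratio of 3.87. With inhibitors HIC1 still stood above HIC2, at ratios of 1.75 beside ATRA and 1.72 beside Am80. Among 19831 protein-coding genes ordered by level per kilobase from the top, HIC1 moved from place 11984 in untreated cells to 2266 with ATRA and 2515 with Am80, and stood at 5489 and 5151 with inhibitors. HIC2 kept to places 6265 to 7052 in all 5 groups.

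Around HIC1, the overlapping SMG6 and a long noncoding RNA behind HIC1 were higher with the retinoids. Within 100 kb of HIC1 the annotation holds 17 other genes, of which 9 had a read in at least 8 libraries and 3 passed the filter on low values. SMG6, on the opposite strand from 2059839 to 2303771, encodes an endonuclease of nonsense-mediated decay, and 2419 of its 10554 exonic bases (22.9%) are also exonic in HIC1. Its level was 391 ± 43 normalized counts untreated (SD, n = 4), 687 ± 23 after ATRA and 623 ± 50 after Am80 (SD, n = 3 each). Its log2 fold changes were 0.82 with ATRA (limma adjusted p = 3.14e-07) and 0.67 with Am80 (adjusted p = 4.42e-06), both called higher. Without untreated replicate 4 they were 0.74 and 0.59, and without Am80 replicate 2 the change with Am80 was 0.73, all still called.

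With inhibitors SMG6 was at 501 ± 10 beside ATRA and 487 ± 39 beside Am80 (SD, n = 3 each). These were differences of -0.46 (limma adjusted p = 0.000488) and -0.35 (adjusted p = 0.00509) on the log2 scale, inside the 1.5-fold limit. Scaled to total reads, the difference beside ATRA was -0.60 and was called. The differences of SMG6 had the sign of those of HIC1 in all 4 comparisons and were smaller. Whether reads from the shared stretch contributed to either gene was not tested.

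ENSG00000262810, an antisense RNA inside SMG6 that starts 26440 bases past the end of HIC1 and runs on the same strand (chromosome 17, 2089681 to 2101560), had no read in any untreated library. It held 23.6 ± 4.3 normalized counts with ATRA, 20.8 ± 2.1 with Am80, 19.9 ± 3.5 in the ATRA combination and 11.5 ± 0.5 in the Am80 combination (SD, n = 3 each). Against a floor of 3 reads in each untreated library, this was at least 6.74-fold, 5.94-fold, 5.68-fold and 3.30-fold higher. Beside Am80 the inhibitors gave -0.79 on the log2 scale (limma adjusted p = 0.0393), a call that was lost under 12 of 27 alternatives. These included leaving out any single library of the Am80 or Am80 combination groups, or ATRA replicate 1, and without Am80 replicate 2 the adjusted p was 0.0667. Beside ATRA they gave -0.23 (adjusted p = 0.537).

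ENSG00000279040, a short transcript of unconfirmed coding status at the end of that RNA, overlaps it on the same strand and also had no read in untreated cells. It reached 9.75 ± 1.31 normalized counts with ATRA and 4.95 to 5.68 in the other 3 treated groups, at least 2.78-fold and 1.41-fold to 1.62-fold higher, and lay under the filter. DPH1, a diphthamide synthesis gene upstream of HIC1, was measured at 347 to 424 normalized counts in the 5 groups and was not called in any of the 4 comparisons of treatments. RTN4RL1, DPH1-AS1, ENSG00000280333, ENSG00000279340 and MCUR1P1 had at most 11 reads in a library.

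**Figure D3:**
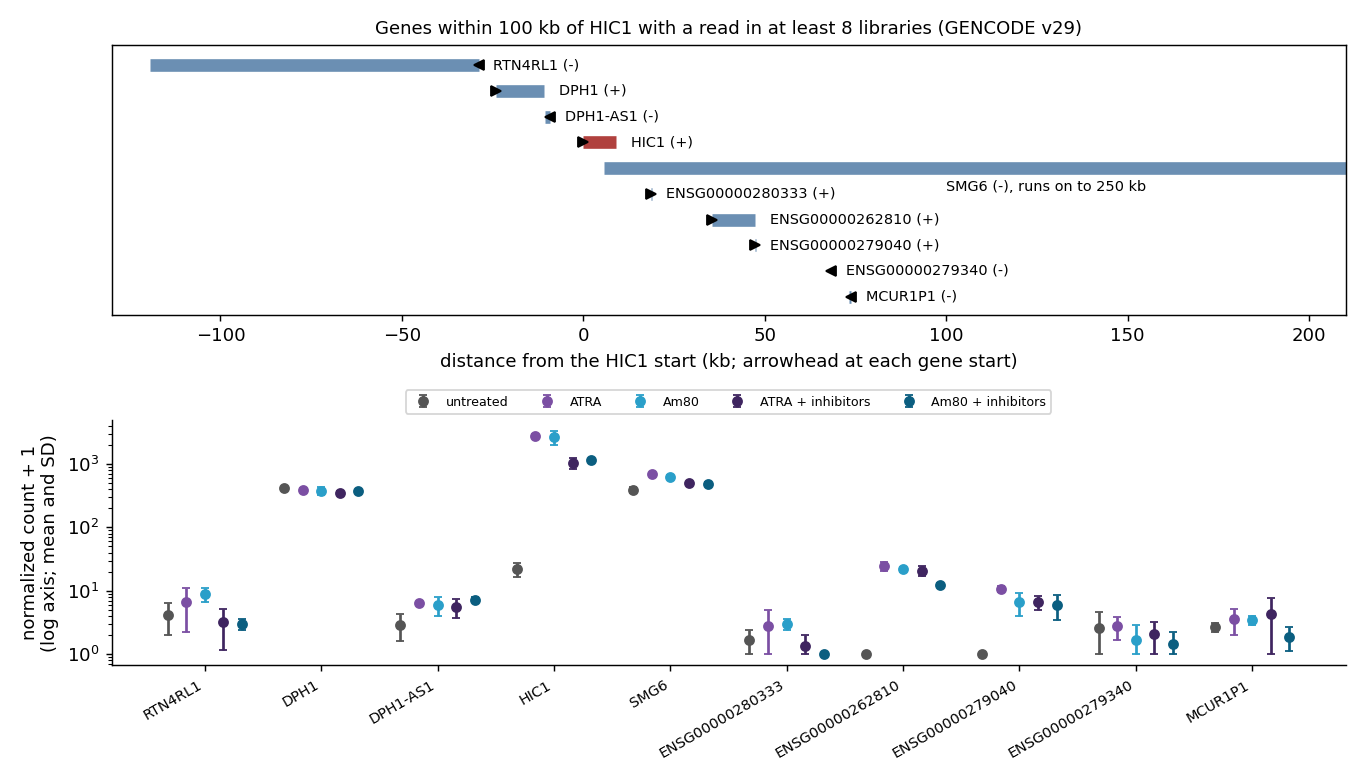
Top, HIC1 and the 9 genes within 100 kb that had a read in at least 8 libraries, drawn by distance from the HIC1 start in kb, with an arrowhead at each gene's start. Bottom, normalized count + 1 of each gene on a log axis, as mean and SD per group. HIC1, SMG6, ENSG00000262810 and ENSG00000279040 stood higher in the ATRA and Am80 libraries than in the untreated ones, and DPH1 stayed at 347 to 424.

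Around HIC2 there were 16 other genes within 100 kb, of which 4 had a read in at least 8 libraries and 2 passed the filter. UBE2L3, which encodes a ubiquitin-conjugating enzyme, held 2105 ± 155 normalized counts in untreated cells (SD, n = 4), and its differences on adding inhibitors were 0.38 on the log2 scale beside ATRA (limma adjusted p = 0.000131) and 0.33 beside Am80 (adjusted p = 0.00064), inside the 1.5-fold limit. PI4KAP2, the pseudogene that shares sequence with HIC2, was at 194 to 267 in the 5 groups. Its difference on adding inhibitors to Am80 was 0.46 (adjusted p = 0.00533), inside the limit, and HIC2 showed 0.01 in the same comparison. TMEM191C and RIMBP3B had at most 11 reads in a library.

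The wider family of BTB zinc finger genes was described beside the pair. Of 47 other members of this family, 39 passed the filter, and the other 8 had at most 22 reads in a library. With ATRA, 1 was called higher and 1 lower, and with Am80 likewise 1 and 1, that is 2.56% of the members each time, where 6.52% and 6.41% of all genes were called higher and 2.94% and 3.76% lower. The median log2 fold changes of the family were 0.02 and 0.06, against -0.02 and -0.01 over all genes. The members called in both comparisons were BCL6 and ZBTB16.

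BCL6 is a transcriptional repressor that acts in germinal center B cells and on inflammatory genes in myeloid cells. BCL6 rose from 93.8 ± 9.9 normalized counts in untreated cells (SD, n = 4) to 255 ± 2.0 with ATRA and 215 ± 9.7 with Am80 (SD, n = 3 each). Its log2 fold changes were 1.44 (limma adjusted p = 9.85e-11) and 1.19 (adjusted p = 1.97e-09). Unlike HIC1, it rose further with inhibitors, by 0.62 beside ATRA (adjusted p = 4.04e-05) and 1.04 beside Am80 (adjusted p = 7e-08), to 392 ± 24 and 445 ± 31. ZBTB16, which encodes PLZF, the partner of RARA in a rare fusion of acute promyelocytic leukemia, fell by 0.74 with ATRA (adjusted p = 0.00386) and by 0.75 with Am80 (adjusted p = 0.00328), from 75.4 ± 10.2 to 44.3 ± 3.0 and 44.8 ± 9.2. With inhibitors it fell by a further 0.96 beside ATRA (adjusted p = 0.000398), and the difference beside Am80 was -0.57 (adjusted p = 0.0243), inside the limit.

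On adding inhibitors, the fit called 5 members higher and 6 lower beside ATRA, against 7 and 3 respectively beside Am80, where 8.15% and 6.81% of all genes were called higher (12.8% and 17.9% of the members) and the family medians were 0.04 and 0.05. Members called lower made up 15.4% and 7.69%, near the 11.4% and 8.9% of all genes. Over all genes the calls also went from 1384 with ATRA and 1490 with Am80 to 2861 and 2300 on adding inhibitors. ZBTB21 rose most, to 1457 ± 153 normalized counts from the 426 ± 19 of ATRA alone and to 1472 ± 32 from the 430 ± 17 of Am80 alone (SD, n = 3 each), which was 1.77 on the log2 scale in both (limma adjusted p = 3.1e-11 and 2.99e-11). ZBTB2 rose by 1.26 and 1.18. ZBTB42 was lower by -1.40 and -1.04, PATZ1 by -1.15 and -1.19 and ZBTB14 by -1.02 and -1.22 on the log2 scale, all with limma adjusted p of 5.79e-05 or less. The fall of HIC1 itself, -1.46 and -1.13, was near the size of these last 3.

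The corepressors and modifiers of HIC1 were all expressed, and none was called with a retinoid. All 30 of 30 listed genes passed the filter, and limma, edgeR and DESeq2 each called 0 with ATRA and 0 with Am80, where limma called 6.52% and 6.41% of all genes higher and 2.94% and 3.76% lower. By limma 10 and 9 had an unadjusted p under 0.05, and 4 and 8 passed the adjusted p without the fold limit, as did 24.6% and 28.8% of all genes. The median log2 fold changes of the list were -0.02 and 0.04 with the retinoids and 0.01 and 0.05 on adding inhibitors to ATRA and to Am80. CTBP1, a corepressor that HIC1 binds, held 2910 ± 234 normalized counts in untreated cells (SD, n = 4) and 2315 to 2714 in the treated groups. CTBP2, its paralog, held 1181 ± 57 in untreated cells and 1162 to 1382 in the treated groups. Neither was called in any of the 4 comparisons. On adding inhibitors, SIRT1 was called higher and MBD3 lower (-0.62) beside ATRA, and EP300 higher (0.65) beside Am80, where 8.15% and 6.81% of all genes were called higher and 11.4% and 8.9% lower. All 3 calls were lost under some alternative. With scaling to total reads SIRT1 was at 0.56 and EP300 at 0.53, EP300 was at 0.48 with quantile normalization, and MBD3 was at -0.53 without replicate 3 of the ATRA combination, each inside the 1.5-fold limit. MBD3 is a subunit of the NuRD complex and EP300 an acetyltransferase, and these 2 were named after their values were seen.

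**Figure D4:**
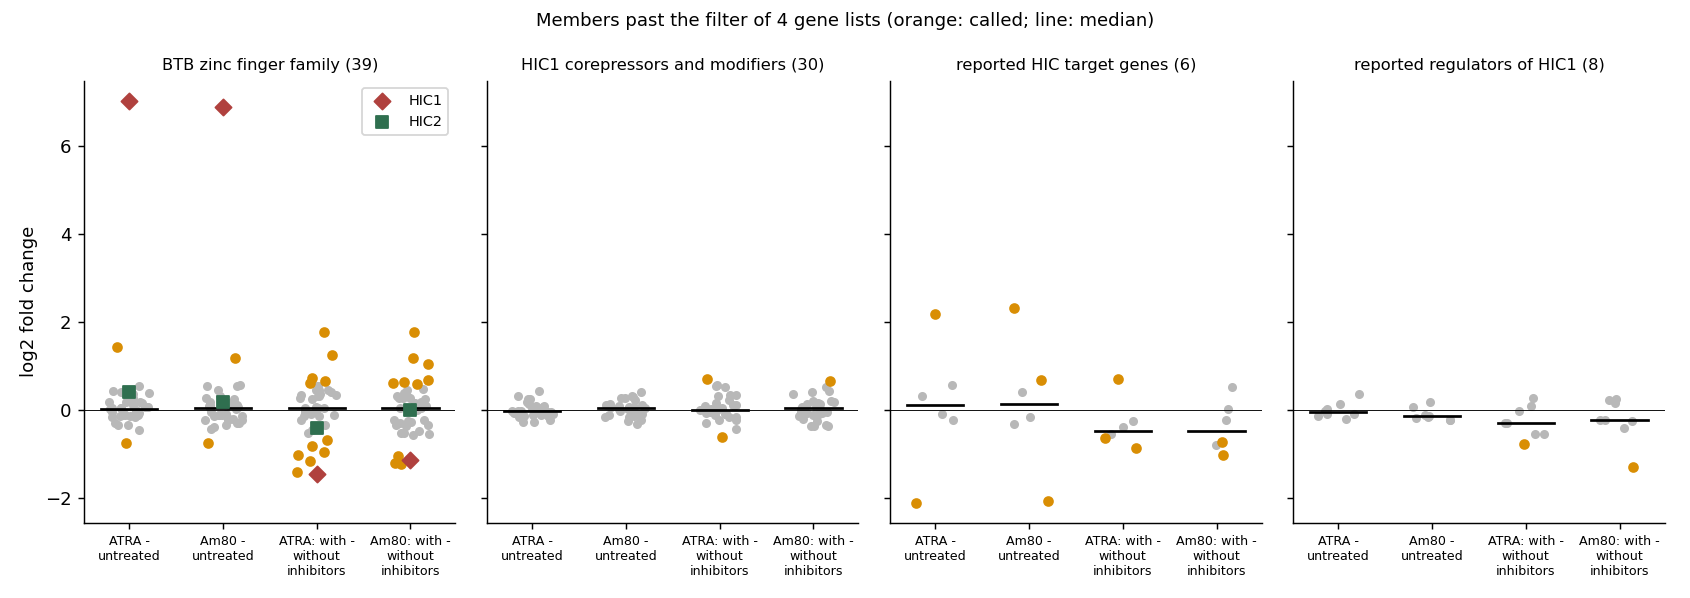
Log2 fold changes of the genes past the filter in 4 gene lists, in each retinoid against untreated cells and in each combination against its retinoid. Each point is a gene, orange where called, the line is the median, and HIC1 and HIC2 are drawn beside their 39 relatives in the left panel. In the left panel HIC1 sits far above its relatives with the retinoids, at 7.01 and 6.89, and beside the lowered relatives on adding inhibitors.

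Reported target genes of HIC1 and HIC2 did not move one way. Of 14 listed genes, 6 passed the filter and the other 8 had at most 21 reads in a library. With ATRA 1 was called higher and 1 lower, and with Am80 2 higher and 1 lower, at median log2 fold changes of 0.12 and 0.13. Over all genes 6.52% and 6.41% were called higher and 2.94% and 3.76% lower, and 1 gene of the 6 is 16.7% of the list. On adding inhibitors 1 was called higher beside ATRA and 2 lower, while beside Am80 the counts were 0 and 2, at medians of -0.47 and -0.48 against -0.02 and -0.01 over all genes. In these comparisons 8.15% and 6.81% of all genes were called higher and 11.4% and 8.9% lower.

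ACKR3, an atypical chemokine receptor gene that HIC1 is reported to repress, stood at 9.29 ± 4.62 normalized counts in untreated cells (SD, n = 4) and at 42.0 ± 6.8 with ATRA and 45.8 ± 3.8 with Am80 (SD, n = 3 each). It rose in the same libraries as HIC1, by 2.18 with ATRA (limma adjusted p = 2.38e-05) and 2.31 with Am80 (adjusted p = 9.91e-06) on the log2 scale. CDKN1A, the p21 gene, was called higher with Am80 (0.69) and was named after its values were seen. With ATRA its difference was 0.576 (limma adjusted p = 5.26e-05), just inside the 1.5-fold limit.

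CCND1, which encodes cyclin D1, stood at 1876 ± 99 normalized counts in untreated cells (SD, n = 4), and its differences with ATRA and Am80, -0.22 and -0.32 on the log2 scale, were inside the fold limit. Inhibitors lowered it by -0.86 beside ATRA (limma adjusted p = 9.33e-09) and -1.02 beside Am80 (adjusted p = 8.97e-10). SIRT1, which stands in both the target and the corepressor list, held 633 ± 30 in untreated cells, 786 ± 55 with ATRA and 843 ± 40 with Am80, and these differences of 0.31 (adjusted p = 0.00142) and 0.41 (adjusted p = 6.98e-05) were inside the limit and upward. With inhibitors it was at 1287 ± 66 beside ATRA, called higher by 0.71 (adjusted p = 1.69e-07), and at 1211 ± 12 beside Am80, where the difference of 0.52 (adjusted p = 8.63e-06) was inside the limit. BCL11A, the reported target of HIC2 in red cells, was covered by 2 to 9 reads per library and lay under the filter. It held 5.58, 3.69, 6.23 and 8.86 normalized counts in the untreated libraries, 2.89, 3.45 and 2.16 with ATRA, and 1.86, 2.07 and 2.17 with Am80. In normalized counts every retinoid library was below every untreated one, but in reads they met. Untreated replicates 1 and 2 had 4 reads, as did replicate 2 of ATRA and replicate 2 of Am80. The ATRA combination held 4.88, 9.78 and 9.09 and the Am80 combination 3.29, 4.12 and 6.44. In a fit without the filter BCL11A was not called, at -0.85 with ATRA (limma adjusted p = 0.358), -1.18 with Am80 (adjusted p = 0.13), and 1.18 (adjusted p = 0.113) and 0.85 (adjusted p = 0.341) on adding inhibitors.

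The 8 reported regulators of HIC1 all passed the filter, and limma, edgeR and DESeq2 each called 0 with ATRA and 0 with Am80, against the same 6.52% and 6.41% of all genes higher and 2.94% and 3.76% lower. By limma 2 and 2 had an unadjusted p under 0.05, and 1 and 0 passed the adjusted p without the fold limit. The list's median log2 fold changes were -0.05 and -0.14 with the retinoids and -0.28 and -0.23 on adding inhibitors, where 1 gene was called lower each time. This is 12.5% of the list, near the 11.4% and 8.9% of all genes called lower. E2F1, a reported activator of HIC1, held 974 ± 85 in untreated cells and 628 to 919 in the treated groups, with a difference of -0.55 (limma adjusted p = 5.08e-05) on adding inhibitors to ATRA. It was not called in the 4 comparisons. TET1, which encodes an enzyme that oxidizes methylated cytosine, was called lower on adding inhibitors, by -0.76 beside ATRA (adjusted p = 0.0121) and -1.30 beside Am80 (adjusted p = 0.000191), and held 76.5 ± 7.6 and 76.6 ± 18 normalized counts with ATRA and Am80 alone (SD, n = 3 each) against 90.7 ± 29 in untreated cells (SD, n = 4). These data hold no measure of DNA methylation.

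The genes whose pattern over the 16 libraries was most like that of HIC1, by Pearson r of the log2 values, were SNN (0.996), IRF1 (0.996), FGR (0.996), CYP26B1 (0.995) and ENSG00000288927 (0.995). These r values are descriptions, since the libraries share their groups and HIC1 splits them into 3 levels. IRF1 encodes an interferon regulatory factor, FGR a Src family kinase and CYP26B1 an enzyme that breaks down retinoic acid. FGR held 86.2 ± 11 normalized counts in untreated cells, 2840 ± 117 with ATRA and 1475 ± 165 in the ATRA combination. CYP26B1 had 0 to 1 read in untreated libraries and held 572 ± 41 with ATRA and 138 ± 17 in the ATRA combination, and ENSG00000288927 had none in untreated libraries and held 88.4 ± 6.5 and 38.5 ± 14. SNN and IRF1 also stood highest with a retinoid alone, lower with inhibitors and lowest in untreated cells, at a smaller scale. They went from 668 and 469 in untreated cells to 3274 and 2156 with ATRA. Over the 5 group means, 3 of these 5 genes stayed among the top 5, and 95 genes had an r above 0.99, so many genes shared this shape.

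**Figure D5:**
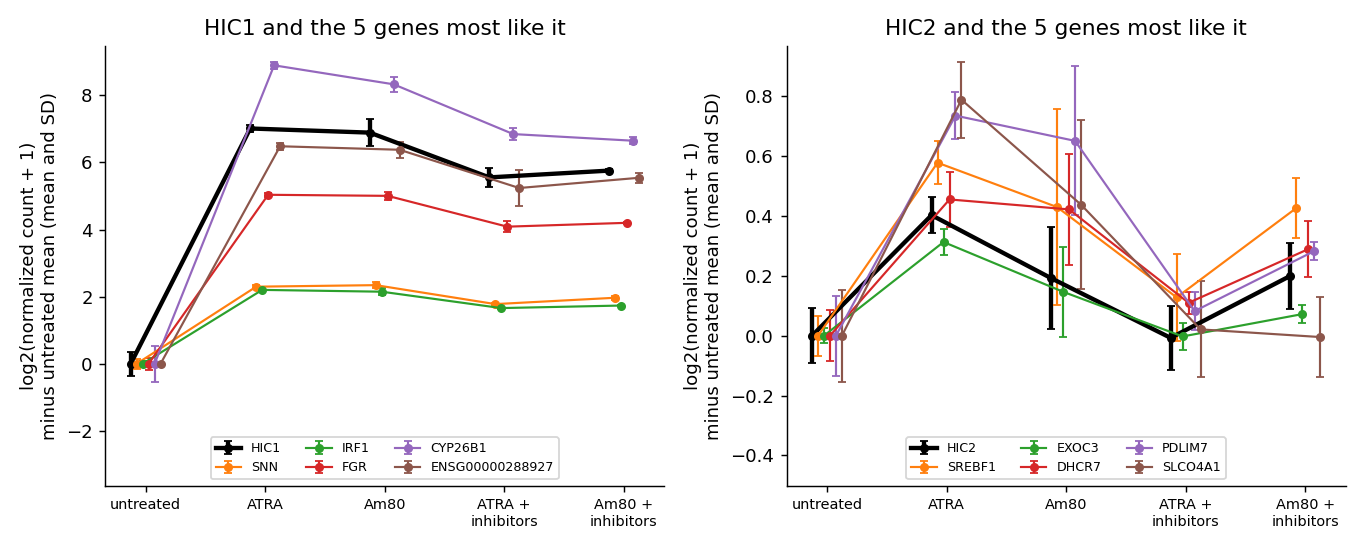
Log2(normalized count + 1) minus the untreated mean, as mean and SD per group, for HIC1 with the 5 genes most like it (left) and HIC2 with the 5 most like it (right). The left genes share a high level with both retinoids and a lower one with inhibitors at very different scales, and the right genes vary by less than 1 log2 unit with wide spread in Am80.

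HIC2 had looser company. Its most similar genes were SREBF1 (r = 0.921), EXOC3 (0.872), DHCR7 (0.872), PDLIM7 (0.856) and SLCO4A1 (0.855) over 16 libraries, and 0 of these 5 stayed in the top 5 over the group means. Like HIC2, all 5 were lowest in replicate 2 among the Am80 libraries, a library that lay apart from its group. SREBF1, for example, held 2135, 1465 and 2204 in Am80 replicates 1 to 3. The r values were not recomputed without that library, so its share in this likeness was not tested. SREBF1 encodes a transcription factor of lipid synthesis and DHCR7 the last enzyme of cholesterol synthesis. SREBF1 averaged 1413 ± 64 normalized counts untreated (SD, n = 4), 2111 ± 106 after ATRA, 1935 ± 409 after Am80, 1549 ± 160 in the ATRA combination and 1902 ± 133 in the Am80 combination (SD, n = 3 each). The r between HIC1 and HIC2 was 0.598, which placed HIC2 at rank 1515 among the genes most like HIC1, and HIC1 at rank 549 among those most like HIC2.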

How the data were processed

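The authors processed 51-base single-end reads on Galaxy (the submitters' notes name FastQC, cutadapt, STAR, featureCounts and DESeq2) and deposited DESeq2-normalized counts, a signal of reads divided by a size factor. The build, annotation and strand setting are not given in the sources used here. Multiplying by each library's factor recovered whole reads for 100% of values (tolerance 0.001). Of 62700 gene identifiers, 58207 matched GENCODE v29, which gave positions and exon lengths.

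Libraries were grouped by their labels and compared in 9 contrasts with limma 3.58.1 (R 4.3.3), as the text describes, since the values were normalized. edgeR 4.0.16 and DESeq2 1.42.0 on the recovered reads, other pseudocounts, filters, scalings and call limits, a replicate block and each library left out were alternatives. In simulated data, 200 of 14643 genes changed 2-fold in every treated group. For ATRA against untreated, limma called 170 of them and 6 others, and edgeR 173 and 9. The spread was assumed there and not estimated from these libraries, and no library was made to lie apart. These rates may therefore not hold here. Python 3.11.15 was used for summaries.

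The members and lists were chosen with earlier results of these data known. Named genes were HIC1, HIC2, their neighbours within 100 kb with reads in at least 8 libraries, list members called in both retinoid or both inhibitor comparisons (up to 6 a list), 8 fixed genes (among them E2F1, SIRT1, CTBP1, CTBP2, BCL11A, BCL6, ZBTB16), and the 5 genes most like each member. Some named genes are not reported here. Genes under the filter were fitted without it. Floors and intervals of reads cover counting error only.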

Additional observations from a re-analysis of the deposited data

Results flagged for a closer look

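Among 39 groups of 4 untreated libraries examined for a single far value, 2 were marked, and chance marks about 1 in 20 such groups. CTBP2 was highest in untreated replicate 4, at 1265 normalized counts, with a gap to the next library of 0.882 of the group's range. CYP26B1 was at 1.11 normalized counts in the same library, which is 1 read, and at 0 in the other untreated libraries. Such a pattern always has a gap of the whole range, so this mark says nothing about the library. Untreated replicate 4 was also the library farthest from its own group.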

How the results depend on the processing

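HIC1 kept its direction in the 4 comparisons with untreated cells under all 26 alternatives run (log2 fold changes 5.31 to 7.13), and its fall on adding inhibitors was called under all 28, at -1.61 to -1.36 beside ATRA and -1.36 to -0.997 beside Am80. All of these reuse the retinoid libraries HIC1 was chosen on. Am80 minus ATRA for HIC1 ran from -0.26 to 0.11 with 1 library left out. For HIC2, dropping the fold limit called 0.40 with ATRA and -0.41 on adding inhibitors to ATRA. Values near 0 changed sign: HIC2 in the ATRA combination minus untreated (0.0259 with quantile normalization, -0.0645 to 0.0411 with 1 library left out), and on adding inhibitors to Am80 (-0.0023 with quantile normalization, -0.12 scaled to total reads, -0.0139 by edgeR, -0.0914 to 0.0629 with 1 library left out). The same held for DPH1 on adding inhibitors to Am80 (0.0431 with quantile normalization, -0.0868 to 0.0912), PI4KAP2 with ATRA (-0.0643 to 0.213) and UBE2L3 with Am80 (-0.0073 scaled to total reads). The cause was not tested. Scaling to total reads moved the median of all genes on adding inhibitors to -0.16 beside ATRA and -0.13 beside Am80.

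Counts of list members called depended on the limits. Without a fold limit they were 10, 12, 25 and 27 for the BTB zinc finger family (ATRA, Am80, and inhibitors beside ATRA and Am80), 4, 8, 14 and 11 for corepressors, 5, 5 and 5 for targets in the first 3 comparisons, and 1, 6 and 4 for regulators with ATRA and with inhibitors beside ATRA and Am80. With an adjusted p under 0.01 and over 2-fold they were 1, 1, 5 and 6 for the family, 0 and 0 for corepressors and 0 and 1 for targets with inhibitors, and 0 for regulators with inhibitors beside ATRA. With a mean of at least 50, the family had 1 and 1 with the retinoids and targets 1 with ATRA. With inhibitors, quantile normalization gave 0 corepressors beside Am80 and 2 regulators beside ATRA, and scaling to total reads gave 1 and 0 corepressors and 3 regulators beside ATRA. Leaving out 1 library gave 2 to 4 for the family with Am80 (4 without untreated replicate 3), and with inhibitors beside ATRA 1 to 3 corepressors (1 without replicate 3 of that combination) and 1 to 2 regulators (2 without its replicate 2). Of all 14643 tested genes, 3609, 4211, 7226 and 5778 passed without a fold limit in the 4 comparisons, in the order given above. Shares of all genes under the other settings are not given here, so nothing is read from those list counts.

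Over all genes, replicate numbers showed little sign of pairing: the deviations of same-numbered libraries correlated at -0.11 to 0.19, and 2 of 16 libraries were closest to their own number. Of 30 same-numbered pairs, 4 correlated above 0.1. This check cannot exclude a shared culture or batch, which the labels do not give. With a replicate block the inhibitor effects on HIC1 were -1.46 and -1.13 (limma adjusted p = 3.51e-08 and 1.15e-06), HIC2 with ATRA was 0.40 (adjusted p = 0.00223), and no call of HIC1 or HIC2 changed. Differences between treated groups could not move, because these groups have the same replicate numbers. Only untreated cells have a replicate 4, so against untreated cells the block gave the same values as leaving that library out.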
